A study of Capra hircus with 13 samples.

Results

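The 10 genes described here are classical zinc-dependent histone deacetylases, *HDAC1*, *HDAC2*, *HDAC3*, *HDAC4*, *HDAC5*, *HDAC6*, *HDAC7*, *HDAC8*, *HDAC10* and *HDAC11*. They were taken by symbol from 18138 gene names found in all tables of the series. The family also holds *HDAC9*, which is not part of this set. Poly(A) RNA of goat (*Capra hircus*) oocytes and embryos was measured by Smart-seq2, which amplifies full-length cDNA from very small inputs, in 13 libraries. Mature (metaphase II, MII) oocytes gave 3 of these, and 4-cell and 8-cell embryos gave 3 each, obtained by in vitro fertilization (IVF). None of these 9 was treated. The other 4 libraries were of 8-cell stage embryos injected into the cytoplasm 8 h after IVF with 5 to 10 pL of 20 µM siRNA, 2 with a universal negative control siRNA (NC, titled WT in the labels) and 2 with siRNAs against *YTHDF2*. Values are FPKM, fragments normalized to the length of a gene and to the mapped fragments of a library, so levels can be compared between genes on a scale per length. Embryos were pooled for each injected library, and the untreated libraries were taken by the authors from earlier work of their group, so experiment and injection cannot be told apart between the untreated and the injected libraries. The earlier work was more than 1 study, and which library came from which is not given in the sources used here, so stage and study cannot be told apart in the comparisons with MII oocytes either.

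Histone deacetylases remove acetyl groups from lysines of histone tails and of other proteins, which tends to close chromatin and lower transcription. Class I enzymes (*HDAC1*, *HDAC2*, *HDAC3* and *HDAC8*) are mostly nuclear, and *HDAC1* and *HDAC2* form the core of the NuRD, SIN3 and CoREST repressor complexes, while *HDAC3* is the enzyme of the NCoR/SMRT complex. Class IIa enzymes (here *HDAC4*, *HDAC5* and *HDAC7*, without *HDAC9*) bind MEF2 factors and are held in the cytoplasm by 14-3-3 proteins. Class IIb holds the cytoplasmic tubulin deacetylase *HDAC6* and the polyamine deacetylase *HDAC10*, and *HDAC11* alone makes up class IV. In the first cleavages the embryo runs on mRNA stored by the oocyte, until that RNA is cleared and the embryonic genome takes over. YTHDF2 binds mRNAs that carry N6-methyladenosine and promotes their decay.

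The knockdown was made with a mixture of 2 siRNAs, whose antisense strands are printed because they define the treated group. Capitals mark bases 2 to 8 from the 5′ end, the seed with which a strand pairs first.
s28148: uUGCUAGCaauaucagcccaa
s28147: uGGUCUAUaguauucaugcca

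The libraries were checked with 9 listed oocyte markers, which do not tell oocytes from early embryos. None of them was at 0 in any library, and their summed FPKM was 1536.34 to 2491.42 in MII oocytes, 2135.23 to 3469.07 at the 4-cell stage, 2512.13 to 3058.7 at the 8-cell stage, 483.9 to 761.99 in NC and 982.38 to 1899.72 in *YTHDF2* knockdown embryos. Cumulus and granulosa cell markers summed to 56.93 to 76.06 FPKM in MII oocytes, 67.87 to 74.99 FPKM in 4-cell and 95.62 to 141.96 FPKM in 8-cell embryos (10 listed), and to 45.62 to 53.1 FPKM in NC and 81.64 to 91.15 FPKM in knockdown embryos (12 listed). Most of this was *HAS2*, *STAR*, *VCAN* and *TNFAIP6*, while the follicle hormone receptor *FSHR* was at most 0.248 FPKM in any library. Of sperm markers, 3 listed ones summed to at most 0.99 FPKM in the untreated libraries and 5 listed ones to 5.13 to 27.13 FPKM in the injected ones. The untreated libraries held 22510532 to 28762303 fragments on shared genes, and the depth of the injected ones is unknown. Log2 values of replicates correlated at 0.971 or above, except that 8-cell replicate 1 correlated at 0.921 and 0.944 with the other two 8-cell libraries.

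*HDAC1*, *HDAC2* and *HDAC3* made up nearly all of the class I mRNA in every library, and the remaining members were at a low level, except for *HDAC7* in 8-cell replicate 1 at 12.9 FPKM. In the untreated libraries *HDAC3* lay above 87.1% to 94.9% of the gene names, *HDAC2* above 88.2% to 94.3% and *HDAC1* above 60.9% to 79% when ranked by FPKM within a library. *HDAC8* was never more than 2.45% of the class I sum. In MII oocytes the order was *HDAC3* over *HDAC2* over *HDAC1*, with no overlap between neighbours. At the 4- and 8-cell stages *HDAC2* and *HDAC3* overlapped, and both stood above *HDAC1*.

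*HDAC2*, a catalytic subunit of NuRD, SIN3 and CoREST, was 22.7, 23.3 and 22.8 FPKM in the MII oocytes, 58.5, 48.0 and 44.9 FPKM in 4-cell embryos and 51.6, 62.9 and 65.5 FPKM in 8-cell embryos. All 6 embryo libraries were above all 3 oocyte libraries. The mean went from 22.9 ± 0.341 FPKM (SD, n = 3) to 50.5 ± 7.10 FPKM (SD, n = 3) and 60.0 ± 7.37 FPKM (SD, n = 3). *HDAC2* rose 2.20-fold between the means of oocytes and 4-cell embryos (log2 fold change 1.10, SE 0.168, limma adjusted p = 0.0015). Between oocytes and 8-cell embryos it rose 2.62-fold (log2 fold change 1.34, SE 0.168, limma adjusted p = 0.000386). The difference between the embryo stages, 0.25 on the log2 scale with a 95% interval of -0.13 to 0.63, did not pass.

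*HDAC3*, the deacetylase of NCoR/SMRT, was 55.1, 58.0 and 50.03 FPKM in the MII oocytes, 32.9, 52.0 and 23.6 FPKM in 4-cell embryos and 56.7, 30.7 and 41.8 FPKM in 8-cell embryos. One embryo library of each stage, 4-cell replicate 2 and 8-cell replicate 1, was at the oocyte level and the others were below it. The means were 54.4 ± 4.04, 36.1 ± 14.5 and 43.1 ± 13 FPKM (SD, n = 3 each). Against MII oocytes, 4-cell embryos differed by -0.65 on the log2 scale (SE 0.30, limma adjusted p = 0.132) and 8-cell embryos by -0.37 (SE 0.30, limma adjusted p = 0.362), and neither passed. Without 4-cell replicate 2 the former was -0.94 and passed (limma adjusted p = 0.0383), while leaving out 4-cell replicate 3 gave -0.38 (limma adjusted p = 0.393). The latter was -0.15 without 8-cell replicate 2 (limma adjusted p = 0.716) and -0.59 without 8-cell replicate 1 (limma adjusted p = 0.144).

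Within their stage, 4-cell replicate 2 held the highest level of 8 of the 9 listed oocyte markers and 8-cell replicate 1 that of 5, beside 54.4% and 51.2% of all genes above 0 at that stage. *MOS*, the kinase that keeps the oocyte in meiotic arrest, was 158 FPKM in 4-cell replicate 2 and 236 FPKM in 8-cell replicate 1, against 38.1 to 78.5 FPKM in the other 4 embryo libraries. *ZP3*, a protein of the zona pellucida, was 82.4 and 65.9 FPKM in these libraries against 23.3 to 29.6 FPKM in the others. The part of this in the levels of *HDAC3* was not tested.

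*HDAC1*, the partner of *HDAC2* in the same complexes, was 7.52, 9.54 and 6.53 FPKM in the MII oocytes, 2.41, 7.57 and 4.49 FPKM in 4-cell embryos and 3.43, 6.53 and 4.91 FPKM in 8-cell embryos. The stages overlapped through the highest embryo libraries, 4-cell replicate 2 and 8-cell replicate 2. The means were 7.86 ± 1.53, 4.82 ± 2.59 and 4.96 ± 1.55 FPKM (SD, n = 3 each). Compared with MII oocytes, 4-cell embryos differed by -0.69 on the log2 scale (95% interval -1.48 to 0.10, limma adjusted p = 0.166) and 8-cell embryos by -0.59 (95% interval -1.38 to 0.20, limma adjusted p = 0.215). The former was -0.35 without 4-cell replicate 1 (limma adjusted p = 0.472) and -1.02 without 4-cell replicate 2 (limma adjusted p = 0.0524), and the latter -0.40 without 8-cell replicate 1 (limma adjusted p = 0.412).

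**Figure D1:**
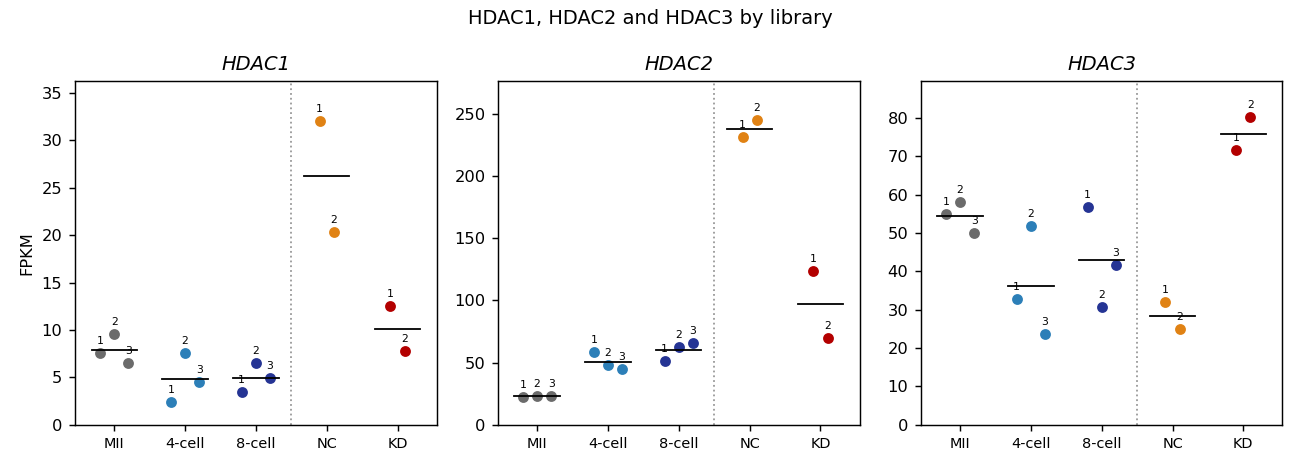
FPKM of *HDAC1*, *HDAC2* and *HDAC3* in each of the 13 libraries by group, with the replicate number beside each point, the group mean as a line and a dotted line between the untreated and the injected libraries (KD, *YTHDF2* knockdown), whose tables were normalized apart. *HDAC2* lies above the oocyte level in all 6 untreated embryo libraries, and in the knockdown *HDAC1* and *HDAC2* lie below and *HDAC3* above both NC libraries.

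The 4-cell call on *HDAC2* and the missing calls on *HDAC1* and *HDAC3* depended on the scale. As deposited, the shared genes held 1.44 to 1.47 times as many fragments per library total in the embryo libraries as in MII replicate 1, and over the 9090 tested genes the median log2 difference from MII oocytes was 0.29 for 4-cell and 0.37 for 8-cell embryos. With the sum of fragments on shared genes used as the total, a setting added with the data in view, these medians were -0.14 and -0.06. For 4-cell embryos the log2 fold changes then were 0.56 for *HDAC2* (limma adjusted p = 0.0409), -1.17 for *HDAC1* (limma adjusted p = 0.0352) and -1.19 for *HDAC3* (limma adjusted p = 0.0174). For 8-cell embryos they were 0.82 for *HDAC2* (limma adjusted p = 0.00564), -1.06 for *HDAC1* (limma adjusted p = 0.0404) and -0.90 for *HDAC3* (limma adjusted p = 0.041). The direction of all 3 genes against MII oocytes was the same under every scaling tried, but the rise of *HDAC2* at the 4-cell stage missed the threshold with median-ratio rescaling (log2 fold change 0.80, limma adjusted p = 0.0544) and with voom (0.57, limma adjusted p = 0.0545).

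By adjusted p under 0.05, 1 of the 4 tested members (*HDAC2*) was higher at the 4-cell stage than in MII oocytes, where 24.7% of all tested genes were, and 0 were lower by limma, where 6.42% of all were, with 1 member under an unadjusted p of 0.05 in either direction. By the rule of the study, over 2-fold change with p under 0.05 before adjustment, it was again 1 of 4, against 22.8% of all. At the 8-cell stage 1 of 4 was higher against 27.3% of all, 0 were lower by limma against 10% of all, with 1 under the unadjusted threshold, and 1 passed the rule of the study against 28% of all. Between the 8- and the 4-cell stage limma called 0 of 4 in either direction, also 0 at an unadjusted p under 0.05, where 3.06% of all genes were higher, 5.24% were lower and 8.83% passed the rule of the study. The members' counts rest on 4 genes. Of all calls in the comparisons with MII oocytes 20.6% (4-cell) and 26.8% (8-cell) were lower as deposited, against 60.3% and 59.3% with the shared-gene totals, and between the embryo stages 63.1% were lower as deposited against 50.6% as TPM over the shared genes.

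A ratio of 2 genes within a library does not depend on how that library was scaled. *HDAC3* held 64.2%, 63.3% and 62.8% of the class I sum in the MII oocytes, 34.7%, 48.0% and 31.5% in 4-cell embryos and 50.5%, 30.5% and 37.2% in 8-cell embryos. The share of *HDAC2* was 25.4% to 28.7% in MII oocytes and 44.3% to 62.4% in the 6 untreated embryo libraries. The log2 ratio of *HDAC2* to *HDAC3* was -1.28, -1.32 and -1.13 in the oocytes, 0.83, -0.12 and 0.93 in 4-cell embryos and -0.14, 1.03 and 0.65 in 8-cell embryos. All 6 embryo ratios were above all 3 oocyte ratios. The log2 ratio of *HDAC1* to *HDAC3* was -2.87, -2.61 and -2.94 in the oocytes, -3.77, -2.78 and -2.39 in 4-cell embryos and -4.05, -2.23 and -3.09 in 8-cell embryos, so that the oocyte values lay inside the range of the embryos. The sum of the 4 class I genes was 79.7 to 91.7 FPKM in the oocytes, 74.9 to 108 FPKM at the 4-cell stage and 101 to 113 FPKM at the 8-cell stage. These ratios and sums are descriptions and carry no test.

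*HDAC8*, the class I enzyme that works outside the large complexes and deacetylates cohesin, was 0.479, 0.796 and 0.275 FPKM in the MII oocytes, 0.936, 0.871 and 1.83 FPKM in 4-cell embryos and 0.517, 0.681 and 0.270 FPKM in 8-cell embryos. The 3 4-cell values were above the other 6. They rest on 23, 20 and 45 fragments, against 7 to 24 in the other 6 libraries, and the gene was under the minimum of 1 FPKM for the test. With no minimum, 4-cell embryos differed from MII oocytes by 0.53 on the log2 scale for this gene (SE 0.225, limma adjusted p = 0.176), which did not pass.

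Of the class IIa genes, *HDAC7* was 0.660 to 0.991 FPKM in MII oocytes, 0.441 to 1.22 FPKM in 4-cell embryos and 12.9, 0.290 and 0.493 FPKM in 8-cell embryos. The high value was 8-cell replicate 1, with 2159 fragments, and *HDAC7* passed the minimum only through this library. Against MII oocytes it differed by -0.10 on the log2 scale in 4-cell embryos (limma adjusted p = 0.937) and by 0.72 in 8-cell embryos (limma adjusted p = 0.494), and between the embryo stages by 0.82, with a 95% interval of -0.90 to 2.53. *HDAC4* was at most 0.184 FPKM and *HDAC5* at most 0.108 FPKM in the untreated libraries, with 0 to 41 and 0 to 12 fragments. For *HDAC5* a count of 0 allows up to 3 fragments, or 0.0175 to 0.0277 FPKM, and its 2 libraries at 0 cannot be set apart from others at or under this level.

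The class IIb gene *HDAC6* was 0.111 to 0.175 FPKM in MII oocytes, 0.051, 0.548 and 0.062 FPKM in 4-cell embryos and 2.19, 0.139 and 0.252 FPKM in 8-cell embryos. *HDAC10* was at most 0.096 FPKM in all untreated libraries but 8-cell replicate 1, where it was 0.9 FPKM. *HDAC11*, the class IV member and a remover of longer acyl groups, was at most 0.166 FPKM, also in 8-cell replicate 1. Thus 5 of the 7 low members (*HDAC4*, *HDAC6*, *HDAC7*, *HDAC10* and *HDAC11*) were highest in that library among the 8-cell libraries, by 4.61, 8.68, 26.2, 45.1 and 3.29 times over the next. Over all 16837 genes above 0 at this stage, 51.2% were highest in that library and 15.9% were over 5 times the next, so that a high value there was common among all genes. With no minimum none of the 6 untested members passed in any stage comparison (limma adjusted p of 0.176 or more).

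**Figure D2:**
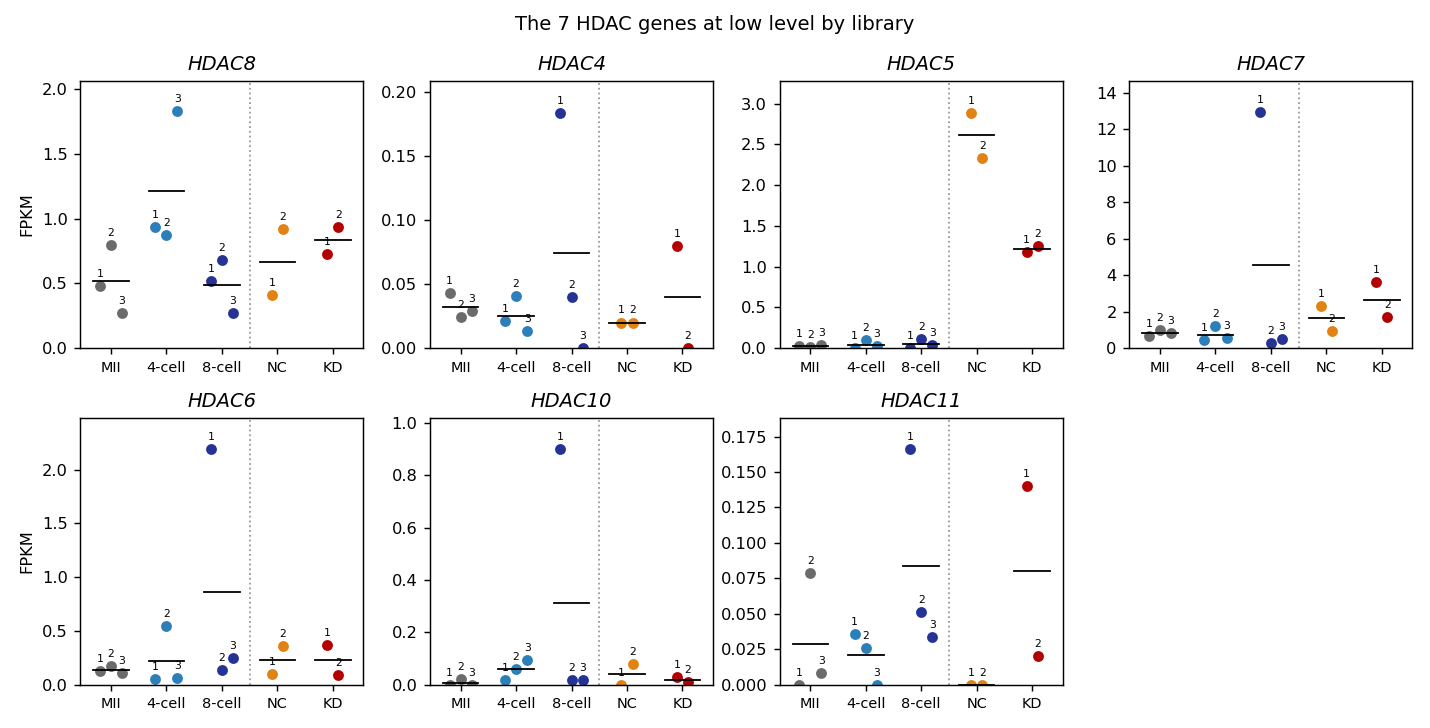
FPKM of the 7 members at low level in each library by group, on axes that differ between panels, with the replicate number beside each point and the group mean as a line. *HDAC4*, *HDAC6*, *HDAC7*, *HDAC10* and *HDAC11* have their highest untreated value in 8-cell replicate 1, and *HDAC5* is above 1 FPKM in the 4 injected libraries alone.

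In the knockdown, the targeted gene was checked first. *YTHDF2* was 112 and 159 FPKM in the NC libraries and 8.07 and 4.47 FPKM in the *YTHDF2* knockdown libraries, -4.25 on the log2 scale (SE 0.432, limma adjusted p = 0.000367). Both libraries of each group stood where their labels put them. The untreated 8-cell embryos held 10.8, 16.7 and 12.5 FPKM of *YTHDF2*, below both NC libraries, in tables normalized apart.

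*HDAC3* was higher, and *HDAC1* and *HDAC2* were lower, in both knockdown libraries than in both NC libraries, and of these differences that of *HDAC3* passed the adjusted threshold. *HDAC3* was 32.0 and 24.9 FPKM in NC and 71.6 and 80.2 FPKM in the knockdown. It rose 2.67-fold between the means of 28.4 ± 5.02 and 75.9 ± 6.09 FPKM (SD, n = 2 each), or by 1.39 on the log2 scale (SE 0.40, limma adjusted p = 0.0465). *HDAC1* was 32.1 and 20.3 FPKM in NC and 12.5 and 7.77 FPKM in the knockdown, with means of 26.2 ± 8.34 and 10.2 ± 3.37 FPKM (SD, n = 2 each). Its log2 fold change was -1.29 (SE 0.441, limma adjusted p = 0.0806), which passed the rule of the study and missed the adjusted threshold. *HDAC2* was 231 and 245 FPKM in NC and 124 and 70.1 FPKM in the knockdown, with means of 238 ± 9.52 and 97.0 ± 38.1 FPKM (SD, n = 2 each). Its log2 fold change was -1.34 (SE 0.404, limma adjusted p = 0.0544), again past the rule of the study alone.

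With 2 libraries a group these calls were close to the threshold. The call on *HDAC3* was lost in 7 of 10 alternatives, over which its log2 fold change was 1.22 to 1.57. Its lowest limma adjusted p, 0.00638, came from a replicate block with crossed numbers, added after seeing the data. The limma adjusted p was 0.0486 with TPM over the shared genes and 0.0921 with the replicate block as numbered. Without knockdown replicate 1 all 3 genes passed, at a limma adjusted p of 0.0273 for *HDAC1*, 0.00828 for *HDAC2* and 0.0353 for *HDAC3*. Without knockdown replicate 2, NC replicate 1 or NC replicate 2 none passed. Of the listed oocyte markers, *MOS* was 91.5 and 34.0 FPKM in NC and 133 and 261 FPKM in the knockdown, and *ZP3* 19.0 and 8.85 against 36.6 and 33.4 FPKM. *DAZL* overlapped, at 9.67 and 4.93 against 10.89 and 6.22 FPKM, and the other listed ones were higher in both knockdown libraries. The summed oocyte list did not overlap between the groups. The summed cumulus and granulosa list did not overlap either, at 53.1 and 45.62 FPKM in NC against 91.15 and 81.64 FPKM in the knockdown. Within it *CD44* went the other way, from 2.26 and 2.14 to 0.43 and 0.24 FPKM, as did *LHCGR*. The share of all genes without overlap between these groups was not counted. Fewer cells with an mRNA and less mRNA per cell cannot be told apart in pooled embryos, and the part of these markers in the levels of *HDAC3* was not tested.

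Of the other members, *HDAC5* was 2.89 and 2.33 FPKM in NC and 1.18 and 1.25 FPKM in the knockdown, and differed by -0.70 on the log2 scale (SE 0.409, limma adjusted p = 0.263). *HDAC7* had 2.32 and 0.95 FPKM in NC beside 3.61 and 1.71 FPKM after knockdown, and the groups overlapped (log2 fold change 0.47, limma adjusted p = 0.5). *HDAC8* was 0.41 and 0.92 FPKM in NC and 0.73 and 0.94 FPKM in the knockdown. *HDAC4*, *HDAC6*, *HDAC10* and *HDAC11* were at most 0.37 FPKM in the injected libraries, and *HDAC11* was listed at 0 in both NC libraries. The 5 members under 1 FPKM on average (*HDAC4*, *HDAC6*, *HDAC8*, *HDAC10* and *HDAC11*) did not pass in the fit with no minimum (limma adjusted p of 0.527 or more), in which no gene at all was called.

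By adjusted p under 0.05, 1 of 5 tested members (*HDAC3*) was higher in the knockdown, where 2.06% of all 11004 tested genes were, and 0 were lower by limma, where 5.92% of all were. These 227 higher and 651 lower genes became 50 to 481 and 245 to 1136 when each library was left out, fewest higher without NC replicate 2, fewest lower without knockdown replicate 2 and most of both without knockdown replicate 1. At an unadjusted p under 0.05 there were 3 of 5, and the same 3 passed the rule of the study, against 24.8% of all genes. The family was chosen with the opposite movement of *HDAC1* and *HDAC3* in this comparison known. The counts of members are therefore no independent result and show no excess in the family. The median log2 fold change was -0.70 over the 5 members and 0.01 over all genes.

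The ratios within a library are given as a description. *HDAC1* and *HDAC3* were picked with their opposite movement in this comparison known, so a gap in their ratio between NC and knockdown was given beforehand. The log2 ratio of *HDAC1* to *HDAC3* was 0.01 and -0.29 in NC, -2.51 and -3.37 after knockdown, and in the untreated libraries it ran from -4.05 to -2.23. Both knockdown ratios lay inside the untreated range, and both NC ratios were above it. The log2 ratio of *HDAC2* to *HDAC3* was 2.85 and 3.30 in NC, above all other libraries, and 0.79 and -0.20 in the knockdown, beside -0.14 to 1.03 in the untreated embryos. *HDAC3* was 10.8% and 8.56% of the class I sum in NC libraries, and 34.3% and 50.4% of it after knockdown. The class I sum was 296 and 291 FPKM in NC, 209 and 159 FPKM in the knockdown and 101 to 113 FPKM in the untreated 8-cell embryos. *HDAC1* and *HDAC2* in NC were 5.29 and 3.97 times the untreated 8-cell means and *HDAC3* was 0.66 times its mean, values that stand side by side without a test because the tables were normalized apart.

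**Figure D3:**
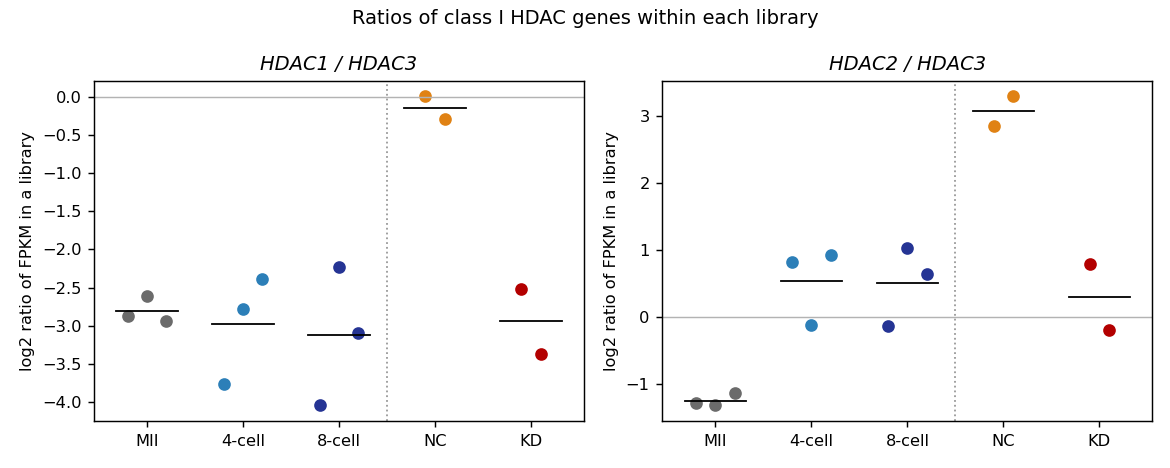
Log2 ratio of *HDAC1* to *HDAC3* (left) and of *HDAC2* to *HDAC3* (right) in each library by group, with the group mean as a line and a dotted line between untreated and injected libraries (KD, *YTHDF2* knockdown). The NC libraries lie above all others in both panels, and the MII oocytes lie below all others in the right panel.

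The partners of the enzymes were described with 9 lists, of which 75 of 78 names were listed and 59 could be tested between stages. At the 4-cell stage 12 of the 59 rose and 5 fell against MII oocytes, where 24.7% and 6.42% of all tested genes did, with a median log2 fold change of 0.09 beside 0.29 over all genes. At the 8-cell stage 15 rose and 5 fell, where 27.3% and 10% of all did, with a median of 0.42 beside 0.37 over all. The 17 calls at the 4-cell stage became 10 without MII replicate 1 and 11 without MII replicate 3 or 4-cell replicate 3. Among the class IIa partners 3 of 6 rose at both stages. All 6 that could be tested between stages were genes of 14-3-3 proteins, which hold phosphorylated class IIa enzymes in the cytoplasm. *YWHAE* rose from 265 ± 16.8 FPKM in MII oocytes to 812 ± 106 FPKM at the 4-cell stage (SD, n = 3 each), with a log2 fold change of 1.61 (limma adjusted p = 0.000134), and was 784 ± 41.1 FPKM at the 8-cell stage (log2 fold change 1.56, limma adjusted p = 9.27e-05). *YWHAZ* rose from 25.7 ± 6.10 to 69.4 ± 6.01 FPKM in 4-cell and 102 ± 3.05 FPKM in 8-cell embryos (SD, n = 3 each), with log2 fold changes of 1.42 and 1.97. *YWHAQ* rose from 72.8 ± 19.4 FPKM in MII oocytes to 416 ± 118 FPKM at the 8-cell stage (SD, n = 3 each), with a log2 fold change of 2.49 (limma adjusted p = 0.000145).

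Subunits of the complexes around *HDAC1* and *HDAC2* went both ways. In NuRD, *MTA3* and the histone chaperone *RBBP4* rose and *CDK2AP1* fell at the 4-cell stage, and *MBD2* alone rose at the 8-cell stage, out of 8 tested. In SIN3, *SAP130* and *ARID4A* rose and the scaffold *SIN3A* fell at the 4-cell stage, and *SAP18*, *SAP130*, *ING2* and *FAM60A* rose and *SIN3A* and *SAP30* fell at the 8-cell stage, out of 13 tested. In CoREST, *RCOR3* and *PHF21A* rose and the demethylase *KDM1A* fell at the 8-cell stage, out of 5 tested, and at the 4-cell stage limma called 0, with 1 at an unadjusted p under 0.05. Of 3 tested NCoR/SMRT genes, the partners of *HDAC3*, limma called 0 in each stage comparison, with 1, 0 and 1 at an unadjusted p under 0.05 (4-cell against MII, 8-cell against MII and 8-cell against 4-cell). *ELMSAN1*, the scaffold of the mitotic deacetylase complex MiDAC, rose at both stages. These rises depended on the scale: with shared-gene totals 5 partner genes rose and 10 fell at the 4-cell stage and 7 rose and 9 fell at the 8-cell stage. Of the 17 and 20 partner genes called as deposited, 10 and 12 then kept their call and direction. At the 4-cell stage *ARID4A*, whose direction turned, *MTA3*, *RBBP4*, *SAP130*, *ELMSAN1*, *HAT1* and *KAT8* lost it, and at the 8-cell stage *FAM60A*, *MBD2*, *RCOR3*, *PHF21A*, *ELMSAN1*, *KAT2B*, *KAT8* and *SIRT1* did.

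The enzymes that add or read acetyl groups were set beside the deacetylases. *KAT2B*, a histone acetyltransferase, rose from 3.85 ± 0.70 FPKM in MII oocytes to 13.4 ± 2.44 FPKM at the 4-cell stage (SD, n = 3 each), with a log2 fold change of 1.56 (limma adjusted p = 0.00111). *KAT8* and *HAT1* also rose at the 4-cell stage, and *KAT2B* and *KAT8* at the 8-cell stage, out of 12 tested. Among the BET readers, which bind acetylated lysines, *BRDT* rose at both stages and *BRD3* fell at the 4-cell stage. Of the 6 tested sirtuins, the NAD-dependent deacetylases, *SIRT4* fell at both stages and *SIRT1* rose at the 8-cell stage. The SD of *SIRT1* over the 8-cell libraries was above its mean.

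Between the 8- and the 4-cell stage 1 partner gene rose (*YWHAQ*) and 3 fell, where 3.06% and 5.24% of all did, with a median of 0.28 beside 0.07 over all genes. *RBBP4*, shared by NuRD and SIN3, fell from 294 ± 29.9 to 126 ± 25.8 FPKM (SD, n = 3 each), with a log2 fold change of -1.23 (limma adjusted p = 0.00674). *KDM1A* fell from 67.4 ± 19.4 to 27.3 ± 5.12 FPKM (SD, n = 3 each), with a log2 fold change of -1.25 (limma adjusted p = 0.0144). *BRMS1L*, a SIN3 subunit, fell from 23.8 ± 7.52 to 10.4 ± 2.34 FPKM (SD, n = 3 each), with a log2 fold change of -1.10 (limma adjusted p = 0.0341), a call lost in 7 of 13 alternatives, among them those without 4-cell replicate 1 or 3 and without 8-cell replicate 1 or 3. The call on *KDM1A* was lost with the replicate block (limma adjusted p = 0.0502) and without 4-cell replicate 1 (limma adjusted p = 0.0529). The 4 calls became 1 without 4-cell replicate 1 and 2 without 4-cell replicate 3, without 8-cell replicate 3, with the replicate block, with no minimum or with median-ratio rescaling.

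In the knockdown 0 of 65 tested partner genes rose by limma and 2 fell (4 and 4 at an unadjusted p under 0.05), where 2.06% and 5.92% of all tested genes did, with a median log2 fold change of 0.07 beside 0.01 over all genes. *FAM60A*, a SIN3 subunit, was 59.0 and 15.1 FPKM in NC and 8.02 and 4.08 FPKM in the knockdown, a difference of -2.20 on the log2 scale (SE 0.561, limma adjusted p = 0.0307). *HAT1*, an acetyltransferase of newly made histones, was 304 and 577 FPKM in NC and 177 and 141 FPKM in the knockdown, a difference of -1.40 on the log2 scale (SE 0.408, limma adjusted p = 0.0487). The call on *FAM60A* was lost in 3 of 10 alternatives: the difference was -1.25 without NC replicate 1 (limma adjusted p = 0.182) and -3.15 without NC replicate 2 (limma adjusted p = 0.00255). That on *HAT1* was lost in 6, with -0.94 without NC replicate 2 (limma adjusted p = 0.339) and -1.24 without knockdown replicate 2 (limma adjusted p = 0.179). The 4 tested NCoR/SMRT genes, partners of *HDAC3*, had a median log2 fold change of 0.49 and none passed.

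**Figure D4:**
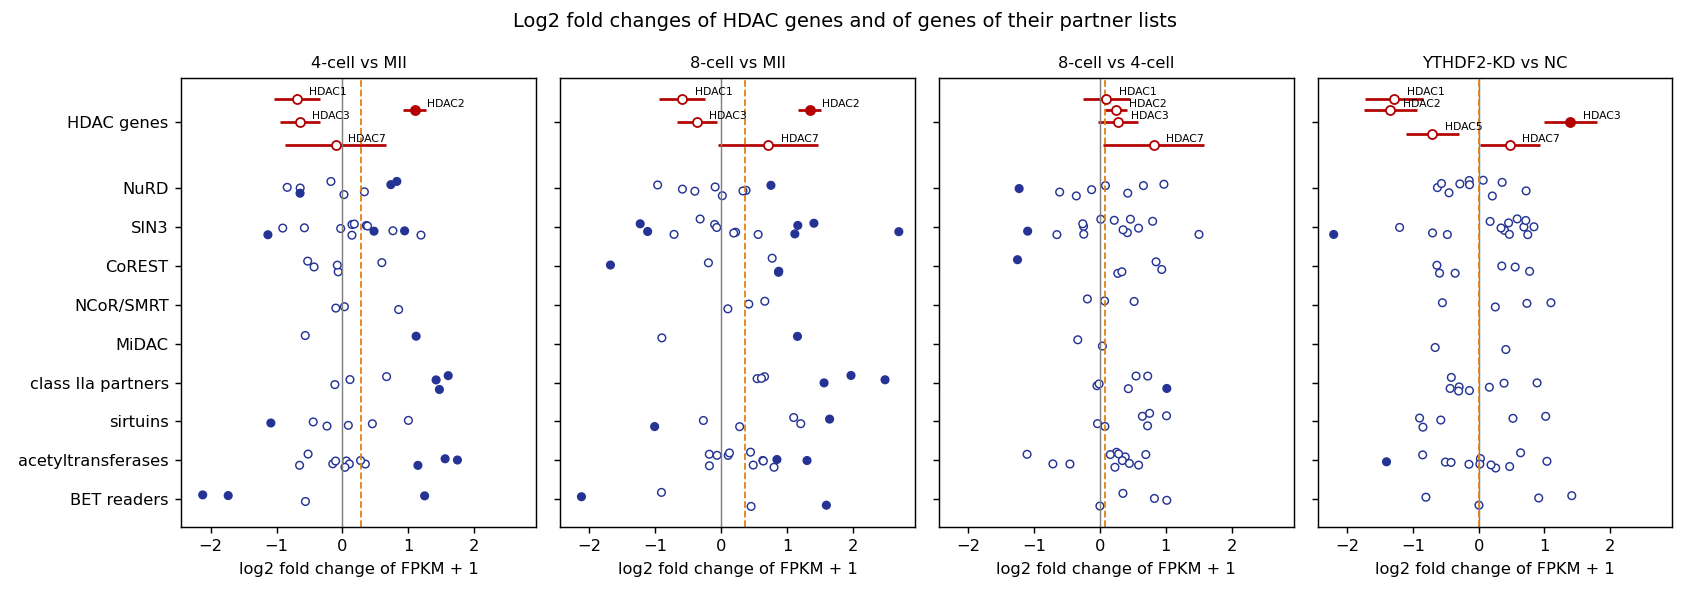
Log2 fold changes of FPKM + 1 in the 4 comparisons for the tested HDAC genes (red, with SE as bars) and for each gene of the 9 partner lists (blue), where filled points passed an adjusted p of 0.05, the grey line is 0 and the dashed line is the median of all tested genes. *HDAC2* is filled in both comparisons with MII oocytes and *HDAC3* in the knockdown.

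Across the 9 untreated libraries, the log2 levels of *HDAC1* and *HDAC3* correlated at a Pearson r of 0.442, *HDAC1* and *HDAC2* at -0.611 and *HDAC2* and *HDAC3* at -0.533, a description over 9 libraries that share stages and scaling. Among 3672 genes averaging 10 FPKM or more, the levels most like those of *HDAC3* were of *NHSL1* (r = 0.979), *PAPD7* (r = 0.967) and *DLG5* (r = 0.965). All 3 were picked by correlation over these same 9 libraries. That they shared the high values of *HDAC3* in 4-cell replicate 2 and 8-cell replicate 1 follows from this choice. *DLG5* was 15.5 to 17.6 FPKM in MII oocytes, 13.5 FPKM and 21.8 FPKM in these 2 libraries and 3.03 to 13.4 FPKM in the other embryo libraries. The levels most like those of *HDAC1* were of the mitochondrial ribosomal protein genes *MRPS15* (r = 0.856) and *MRPL39* (r = 0.85) and of *LEO1* (r = 0.855), a subunit of the PAF1 complex.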

How the data were processed

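Deposited values are FPKM per gene and library, for which the authors used HISAT2 (genome ARS1, unique alignments) and HTSeq. The 3 tables of untreated libraries hold more decimals than the 2 tables of injected libraries, which are rounded to 2 decimals. No column of values was left unused (0), and the tables hold no columns of comparisons. Names listed once in all tables of a fit were used, 18159 for the stages and 27121 for the injected embryos, and the 10 members matched RefSeq symbols (assembly ARS1.2, used for names alone).

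Genes averaging 1 FPKM or more in the libraries fitted together were tested on log2(FPKM + 1), which understates changes of low genes, with limma 3.58.1 in R 4.3.3 (lmFit, eBayes with a trend). The 9 untreated libraries formed 1 fit (9090 genes) and the 4 injected libraries another (11004 genes). A call is a Benjamini-Hochberg adjusted p under 0.05, two-sided, and the rule of the study, an unadjusted p under 0.05 with over 2-fold change, was counted beside it. The members tested were 4 between stages and 5 in the knockdown. Values of a gene are multiples of what 1 fragment is worth, from which fragments were recovered for 100% of 17918 genes of the untreated libraries. The tolerance was 0.02 of a whole number and wider at high counts. The smallest solution was taken, so a factor common to all 9 counts of a gene cannot be seen. Intervals of counts cover counting error only. Nothing says that replicates were separate collections, so p-values measure the spread between these libraries, which may be technical.

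Partner lists (NuRD, SIN3, CoREST, NCoR/SMRT, MiDAC, class IIa partners, sirtuins, acetyltransferases, BET readers) include older and newer symbols of the same gene. Of them, values are given for the 3 called genes with the smallest adjusted p per comparison, and the other called genes are named, except for a result that is not reported here. Members, lists and rules were chosen with earlier results of these data known, the opposite movement of *HDAC1* and *HDAC3* included, and the lists are no independent support. Alternatives were a pseudocount of 0.1, no minimum, median-ratio rescaling, TPM over the shared genes, voom on recovered fragments, shared-gene totals, a replicate block and leaving out each library. For the knockdown a replicate block with crossed numbers, added after seeing the data, is counted among them.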

Additional observations from a re-analysis of the deposited data

How the results depend on the processing

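Number of members called by limma at an adjusted p under 0.05, against 1 as reported: at the 4-cell stage against MII oocytes it was 3 with TPM over the shared genes, 2 with voom, 3 with shared-gene totals and 1 to 2 when each replicate was left out. At the 8-cell stage it was 2 with median-ratio rescaling, 3 with voom and 3 with shared-gene totals. Between the 8- and 4-cell stages it was 0 under all alternatives. In the knockdown it was 0 with a pseudocount of 0.1, 0 with no minimum (where 0 of 20357 genes passed, *YTHDF2* included), 0 with median-ratio rescaling and 0 to 3 when each replicate was left out. Where the lone library of a group was left, it was assumed to vary like the other group. Except for shared-gene totals, whose construction removes the 1.44- to 1.47-fold gap in fragments, the cause was not tested.

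The log2 fold change of *HDAC7* at the 4-cell stage was -0.295 to 0.017 when each replicate was left out, that of *HDAC1* between the 8- and 4-cell stages -0.24 to 0.43, and the log2 ratio of *HDAC1* to *HDAC3* in NC -0.29 to 0.005.

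The replicate numbers do not pair the stages (same-numbered correlations of deviations -0.508 to 0.201). The replicate block left 0 members called in the knockdown, where same-numbered libraries correlated at -0.152, and a block with crossed numbers, added after seeing the data, called 3. The replicate block changed no other call on a member. Depth limits the members under 1 FPKM, at 0 to 202 fragments.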
